A study of Homo sapiens with 4 samples.

Results

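The long arm of human chromosome 8 holds a block in which most of the tested genes had less RNA in Synph-293 than in HEK293. The block is made of all deposited genes of chromosome 8 (GRCh38) that start within the 33 Mb from position 69000000, which is from 69 to 102 Mb, without HEY1 and RDH10. It holds 540 of the 60676 genes in the table, and 116 of these 540 had enough counts to be tested, among 16421 genes tested in all. The other 1941 genes of chromosome 8, of which 437 were tested, served as its comparison. The bounds were chosen from the fold changes between the same groups, so fold changes and calls inside the block are given as a description, and no test of the block was made.

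Synph-293 are HEK293 cells that overexpress synphilin-1, the product of SNCAIP, and were set against wild-type HEK293, a line derived from human embryonic kidney. Each group had 2 libraries from non-treated cells. It is not stated in the labels if Synph-293 is a clone or a pool, or what drives SNCAIP in it. Nothing there says that replicates are separate cultures either, so p-values measure only the spread between libraries, which may be technical. Library totals lay between 13284417 and 16998732 counts, and SNCAIP had 1366 and 1524 CPM in Synph-293, against 1.01 and 1.198 CPM in HEK293 (CPM is a count scaled to the TMM-adjusted library size). Of 7 HEK293 and embryonic kidney markers, PAX2, NEFL and KRT8 were called higher. The embryonic kidney gene LHX1, the filament gene VIM and the keratin genes KRT8 and KRT18 had counts in every library, NEFM had 4 to 14 counts, and PAX2 had 88 and 81 counts in Synph-293 against 13 and 8 in HEK293. Of 5 fibroblast markers, COL1A1 and COL3A1 were called higher, DCN had 2 and 3 counts in Synph-293 and 0 in both HEK293 libraries, and the 5 together had 98.0 and 95.1 CPM in Synph-293 against 45.7 and 43.6 CPM in HEK293. Their part in the values of the block was not tested. The 4 blood markers (together 25.2 and 32.0 CPM in Synph-293 against 34.0 and 36.0 CPM in HEK293, mostly HBB) and the 3 endothelial ones (5.72 and 4.42 CPM in Synph-293 against 2.91 and 3.52 CPM in HEK293) were called in neither direction, and PTPRC, CD3E, PECAM1 and CDH5 had at most 8 counts in any library.

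Genes that lie side by side on a chromosome share the number of copies of that stretch of DNA and can share chromatin domains, whereas a transcription factor acts on targets scattered over many chromosomes. The long arm of chromosome 8 is among the segments most often gained in solid tumours, and MTDH, LAPTM4B and YWHAZ, which lie in the block, have been studied for that reason. HEK293 is known for an abnormal set of chromosomes that differs between stocks. The values used here are RNA counts without a measure of DNA, so copy number was not tested, and in bulk samples fewer cells with a transcript and less RNA per cell cannot be told apart.

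The block as a whole took up a smaller part of the Synph-293 libraries. Its 540 genes made up 0.463% and 0.452% of the counts of Synph-293 replicates 1 and 2, against 0.725% and 0.724% in HEK293 replicates 1 and 2, a ratio of 0.632. Both Synph-293 libraries were below both HEK293 libraries, and the 95% Wilson intervals reached at most 0.00456 percentage points to either side, which covers counting error only. Without its 5 highest genes the block made up 0.227% and 0.232% in Synph-293, against 0.365% and 0.331% in HEK293, a ratio of 0.659. The other genes of chromosome 8 made up 2.10% and 1.98% in Synph-293 and 2.03% and 2.03% in HEK293, so that their shares overlapped between the groups.

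Gene by gene, the median log2 fold change of Synph-293 over HEK293 was -0.575 in the block (116 genes, quartiles -0.78 and -0.283), which corresponds to 0.671 times the HEK293 level. It was 0.077 over the other 437 tested genes of chromosome 8 (quartiles -0.236 and 0.38), a difference of medians of -0.653, and -0.013 over all 16421 genes. Of the 116 block genes, 101 or 87.1% had a log2 fold change below 0, against 43.2% of the other chromosome 8 genes and 51.3% of all genes. Of the 116 values, 66 lay between -1 and -0.3, 19 below -1 and 10 above 0.3.

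**Figure D1:**
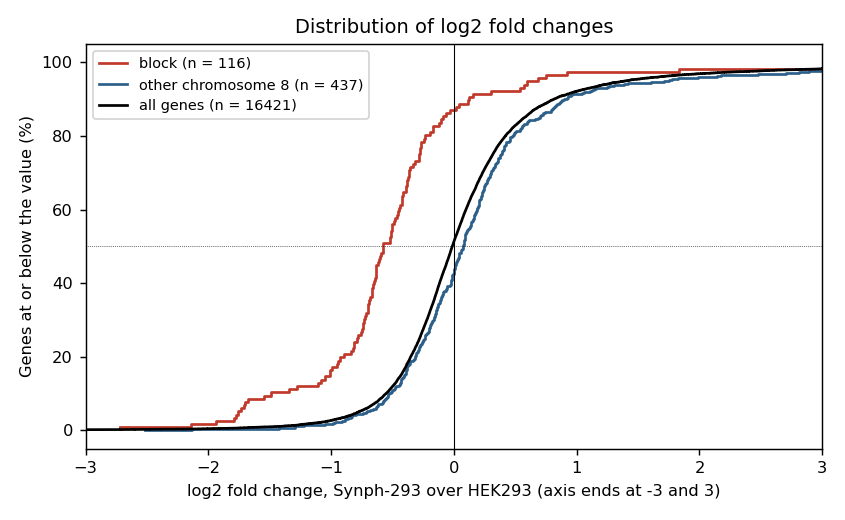
Cumulative share of genes (%) by log2 fold change of Synph-293 over HEK293, for the 116 tested block genes, the 437 other tested chromosome 8 genes and all 16421 tested genes. The curve of the block lies to the left of the others over most of its height, and crosses 0 at 87.1%.

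With edgeR's quasi-likelihood test at an adjusted p under 0.05, 49 block genes were called lower and 4 higher. Over all genes tested, 6.58% were called lower and 10.0% higher, and because the block was chosen on this contrast nothing is read from the difference. Among the other chromosome 8 genes, 22 were called lower and 48 higher. Both Synph-293 libraries lay below both HEK293 libraries for 84 of the 116 block genes, and above them for 10. The same was seen for 29.1% and 30.5% of all genes tested. Leaving out Synph-293 replicate 1 or 2 brought the count of 49 lower genes to 21 or 27, and 18 of the 49 kept the call whichever of the 4 libraries was left out. The count of 4 higher genes was 2 when Synph-293 replicate 2 was left out and 8 when HEK293 replicate 2 was. With 1 library left in a group, the spread between libraries comes from the other group alone. Calls can then be lost or gained while the fold change stays much the same. The block genes called lower numbered 26 and 27 in limma on log2 TPM with pseudocounts of 0.1 and 1.

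The difference was then taken library by library. Relative to the mean of the 4 libraries, the median log2 CPM of the block was -0.269 and -0.284 in Synph-293 replicates 1 and 2, against 0.313 and 0.23 in HEK293 replicates 1 and 2. The 4 pairings of a Synph-293 with a HEK293 library gave medians of -0.547 and -0.497 for Synph-293 replicate 1 (minus HEK293 replicates 1 and 2) and -0.615 and -0.526 for Synph-293 replicate 2. Within a group, a comparison that the choice of the block did not use, the median over the same genes was 0.032 for Synph-293 replicate 2 minus replicate 1 and -0.031 for HEK293 replicate 2 minus replicate 1, with 56 and 62 of 116 genes below 0. With 1 library on each side these values have no test.

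**Figure D2:**
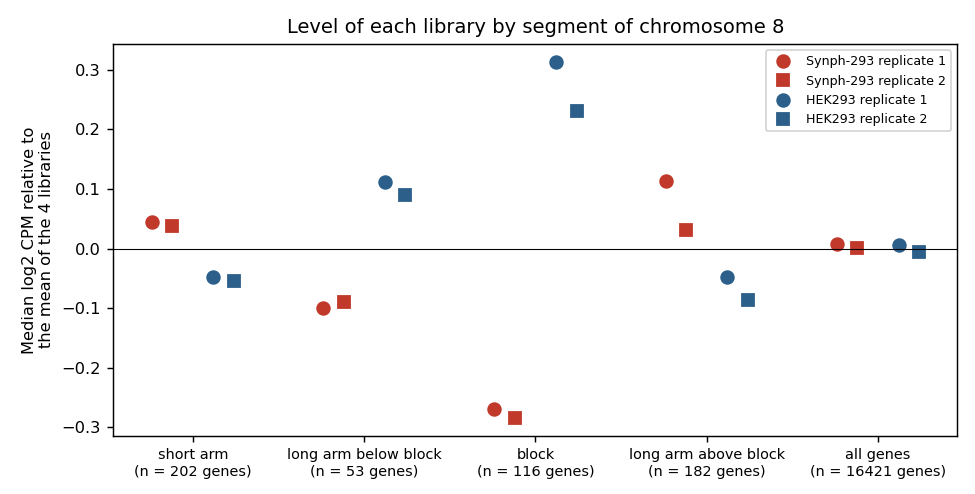
Median log2 CPM of each library relative to the mean of the 4 libraries, for the segments of chromosome 8 and for all genes; red points are Synph-293 libraries and blue points HEK293 libraries. In the block the Synph-293 libraries lie at -0.269 and -0.284 and the HEK293 libraries at 0.313 and 0.23, while over all genes the 4 libraries lie close to 0.

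The shift ran along the whole block and was deeper towards its far end. In consecutive bins of 3 Mb, each of the 11 bins inside the block had a median log2 fold change below 0, with values from -0.69 to -0.27 and 4 to 18 tested genes in a bin. The bins of 96 to 99 Mb and 93 to 96 Mb had medians of -0.69 (17 genes) and -0.67 (18 genes), and 13 and 7 of their genes were called lower. The bin of 78 to 81 Mb had the median nearest to 0, at -0.27 over 10 genes, of which 4 were called lower and 1 higher. The median was -0.418 over the 70 tested genes with a start up to 93 Mb and -0.675 over the 46 beyond it, where 28 were called lower and 0 higher. That position was chosen after the values were seen.

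The bounds at 69 and 102 Mb do not mark sharp edges. A running median over 15 neighbouring tested genes stayed below 0 from the start of POLB at 42338454, near the centromere, to that of TMEM74 at 108606850, a stretch of 66.3 Mb. It was lowest, at -0.78, in the window centred on NCALD (start 101686542), the last tested gene of the block. That window also takes in genes beyond the bound. Over 15 protein-coding genes the lowest value on chromosome 8 was -0.74 at RRM2B, outside the block, and over 31 genes -0.69 at VPS13B. Within the block the running median over 15 genes did not rise above -0.29. The 53 tested genes of the long arm before the block had a median log2 fold change of -0.238, and 40 of them were below 0. They were mixed along the arm. From 45 to 69 Mb the consecutive bins had medians of 0.0, 1.4, -0.36, -0.31, 0.09, -0.0, -0.32 and -0.37. The bin at 1.4 held 2 genes, and the running median over 15 genes came as near to 0 as -0.02 at TOX. The short arm (202 genes) had a median of 0.041, and its bins had medians between -0.23 (27 to 30 Mb) and 0.56 (0 to 3 Mb). The long arm after the block (182 genes) had a median of 0.171. After the block, the 15 genes from 102 to 105 Mb had a median of -0.635, the 12 from 105 to 112 Mb one of -0.381 and the 155 beyond 112 Mb one of 0.205, again split after the values were seen. The stretch in the middle was mixed: the 5 genes from 105 to 108 Mb had a median of 0.36, with 2 of them below 0, and the 7 from 108 to 111 Mb one of -0.51. The running median, which spans 15 genes, stayed below 0 across that bin.

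**Figure D3:**
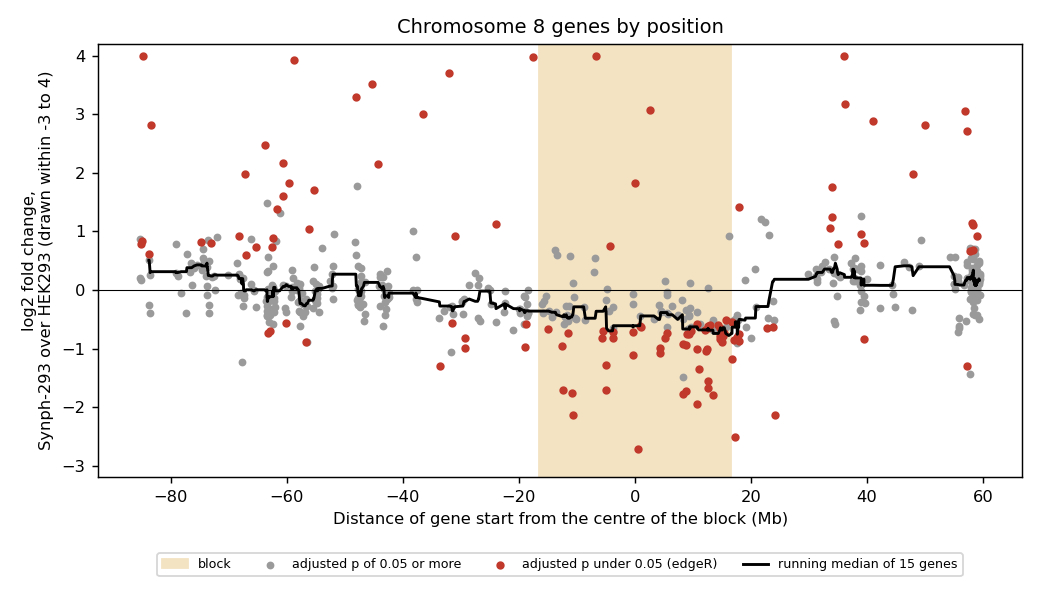
Log2 fold change of Synph-293 over HEK293 for each tested gene of chromosome 8 (points, red where called by edgeR) against the distance of its start from the centre of the block in Mb, with a running median of 15 genes (line) and the block shaded. The line falls below 0 before the block, is lowest at its far end, at -0.78, and lies above 0 over most of the rest of the long arm.

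At the lower bound, the last tested genes outside were CSPP1, a centrosomal protein gene, with a log2 fold change (± standard error) of -0.39 ± 0.17, the exchange factor gene ARFGEF1 with -0.01 ± 0.15 and the exchange factor gene PREX2 with 3.97 ± 0.60. PREX2 had 2.74 and 2.64 CPM in Synph-293, against 0.296 and 0 CPM in HEK293. The first tested genes inside were the sulfatase gene SULF1 (-0.24 ± 0.23), the transporter gene SLCO5A1 (-0.39 ± 0.18) and the long noncoding RNA AC079089.1 (-0.20 ± 0.35). At the upper bound, the last inside were the long noncoding RNA ZNNT1 (-0.64 ± 0.48), the zinc finger gene ZNF706 (-0.52 ± 0.15) and the calcium sensor gene NCALD (0.93 ± 0.35). The first outside was RRM2B, a subunit of ribonucleotide reductase (-0.54 ± 0.15), which lay within the range of the genes just inside.

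The shift was seen in highly and in weakly expressed genes and at low and middle GC content. In the highest tertile of all genes by mean CPM, 26 of 27 block genes were below 0 with a median log2 fold change of -0.655, against -0.059 for genes of the same tertile outside chromosome 8. In the middle tertile the medians were -0.514 (51 block genes) and -0.053, and in the lowest tertile -0.47 (38 block genes) and 0.166. Transcripts of block genes were poorer in G and C, with a median of 42.9% against 49.5% for the other chromosome 8 genes. In the lowest tertile by GC content the median log2 fold change was -0.596 for 82 block genes and -0.091 outside chromosome 8. In the middle tertile it was -0.519 for 29 block genes and -0.007 outside. The highest tertile held only 4 block genes, all below 0, with a median of -0.54 against 0.068 outside. The 54 block genes on the plus strand had a median of -0.627 and the 62 on the minus strand one of -0.504.

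Most tested genes of the block were protein-coding, as were 13905 of the 16421 genes tested in all. Of the 129 protein-coding members of the block 99 were tested, with a median log2 fold change of -0.593, 45 called lower and 3 higher. Over all tested protein-coding genes, 6.95% were called lower and 10.3% higher. Of the 180 long noncoding RNA genes of the block 17 were tested, with a median of -0.265, 4 called lower and 1 higher. Over all tested long noncoding RNAs the shares were 4.98% and 8.77%. Nothing is read from these differences, because the block was chosen on this contrast. None of the 132 processed pseudogenes of the block was tested, although 23 had at least 1 count. In all, 424 members were not tested. Of these, 325 had no count in any library, and the highest total over the 4 libraries was 42 counts, for FBXO43.

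On the TPM scale, in which the authors' values take transcript length into account, the most abundant transcripts of the block were those of 2 ribosomal proteins. RPL7 (chromosome 8, 73290242 to 73295789) had 1699 and 1464 TPM in Synph-293, against 2373 and 2376 TPM in HEK293. RPL30 (98024851 to 98046469) had 1353 and 1203 TPM in Synph-293, against 2024 and 2105 TPM in HEK293. PABPC1, the cytoplasmic poly(A)-binding protein, followed with 597 and 666 TPM in Synph-293 and 775 and 1051 TPM in HEK293. For these 3 genes the groups did not overlap, and their log2 fold changes from the counts were -0.58 ± 0.18, -0.66 ± 0.16 and -0.78 ± 0.19. RPL30 and PABPC1 were called lower and RPL7 was not (edgeR adjusted p = 0.0531). With Synph-293 replicate 1 left out, the log2 fold changes of RPL30 and PABPC1 were -0.66 and -0.73. With Synph-293 replicate 2 left out, they were -0.64 and -0.82. Neither gene kept its call in these fits, which leave 1 Synph-293 library. RPL7, RPL30, PABPC1, YWHAZ, COX6C and UQCRB have processed pseudogenes elsewhere in the genome that can share reads with them, so their values are uncertain to that extent.

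**Figure D4:**
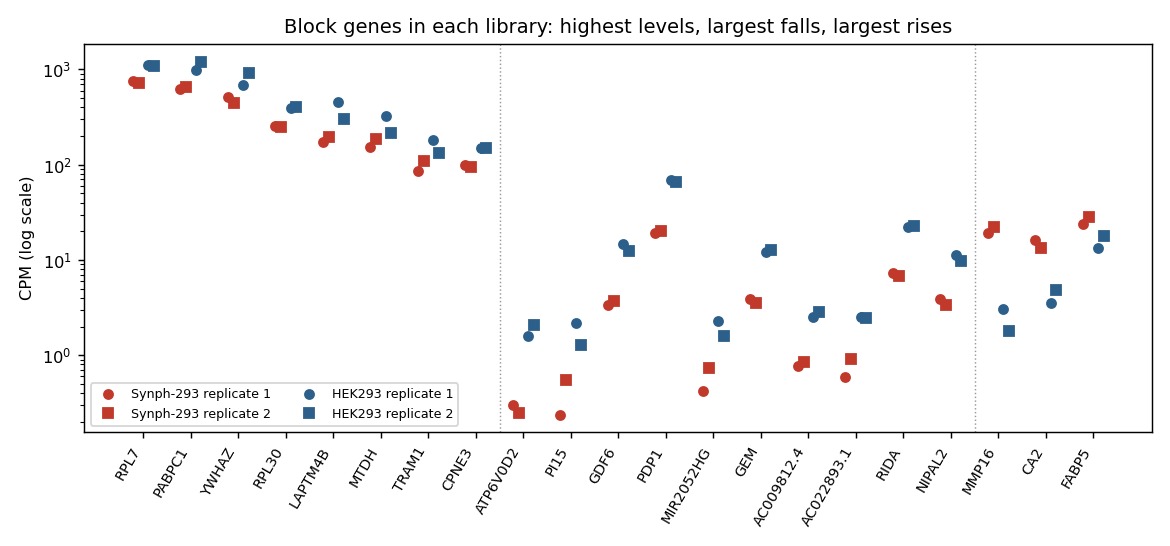
CPM (log scale) in each of the 4 libraries for the 8 block genes with the highest mean CPM (left of the first dotted line), the 10 largest falls and the 3 largest rises by the rule for named genes. Red points are Synph-293 libraries and blue points HEK293 libraries; the red points lie below the blue ones for the first 18 genes and above them for MMP16, CA2 and FABP5.

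Block genes were also grouped by role. Over the whole block 87.1% of tested genes were below 0, 42.2% were called lower and 3.45% higher. Counts per list near these shares are not read as traits of a role. The lists also differ in where their genes lie, and the shift was deeper beyond 93 Mb. Role was not separated from position. The 31 tested block genes in no list had a median log2 fold change of -0.44, with 9 called lower and 1 higher. Genes of the ribosome and of RNA processing were below 0 throughout, as were most tested genes of the block. All 13 tested members of 14 listed had a log2 fold change below 0, from -1.01 to -0.46 with a median of -0.66, and 9 were called lower and 0 higher. Of the 9, MTERF3 alone kept the call whichever library was left out, and each of the other 8 lost it when a Synph-293 library was left out. MTERF3, which acts on mitochondrial transcription and ribosome assembly, had 14.7 and 13.2 CPM in Synph-293 replicates 1 and 2, against 28.1 and 28.1 CPM in HEK293 replicates 1 and 2. VIRMA, a scaffold of the complex that writes N6-methyladenosine on mRNA, had 73.2 and 81.2 CPM in Synph-293, against 138 and 122 CPM in HEK293. POP1, a protein of RNase P, had 47.6 and 49.1 CPM in Synph-293, against 74.2 and 74.5 CPM in HEK293. In these 3 genes the groups did not overlap. VIRMA lost its call when Synph-293 replicate 1 or 2 was left out. Its log2 fold changes were then -0.67 and -0.83, against -0.75 with all libraries. INTS8 of the Integrator complex had a log2 fold change of -0.76 ± 0.15, and POLR2K, a subunit shared by the RNA polymerases, one of -0.65 ± 0.16.

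Mitochondrial genes were spread more widely. Of 10 tested, 3 were called lower and 0 higher, 9 were below 0, and the median log2 fold change was -0.42. PDP1 (chromosome 8, 93857807 to 93926068), the phosphatase that activates pyruvate dehydrogenase, had 19.1 and 20.3 CPM in Synph-293, against 69.6 and 65.2 CPM in HEK293. RIDA, an enzyme that removes reactive imines, had 7.27 and 6.81 CPM in Synph-293, against 22.1 and 22.99 CPM in HEK293. Both were far below the level of the block, with log2 fold changes of -1.77 ± 0.16 and -1.68 ± 0.18, and both kept the call whichever library was left out. The respiratory subunit genes COX6C and UQCRB had values of -0.59 ± 0.18 and -0.38 ± 0.16. COX6C, which was called lower, lost the call with Synph-293 replicate 1, Synph-293 replicate 2 or HEK293 replicate 1 left out. Its log2 fold changes were then -0.53, -0.65 and -0.37. UQCRB was not called. GDAP1, a gene of mitochondrial fission, had 21.2 and 16.5 CPM in Synph-293, against 12.2 and 13.1 CPM in HEK293, so that its libraries were higher in Synph-293 although it was not called (0.57 ± 0.19).

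Genes of genome maintenance and the cell cycle had the lowest median after the matrix genes. All 8 tested were below 0, as were 87.1% of tested block genes. Their median log2 fold change was -0.75, and 5 of the 8 were called lower and 0 higher. TERF1, which binds the repeats of telomeres, had 36.0 and 37.7 CPM in Synph-293, against 68.1 and 74.6 CPM in HEK293. RAD54B, a motor protein of homologous recombination, had 19.02 and 18.8 CPM in Synph-293, against 39.5 and 33.2 CPM in HEK293. E2F5, a transcription factor of the cell cycle, had 8.64 and 7.06 CPM in Synph-293, against 18.03 and 15.8 CPM in HEK293. These 3 genes kept the call whichever library was left out, the other 2 called ones did not, and their log2 fold changes were -0.95 ± 0.15, -0.94 ± 0.16 and -1.11 ± 0.20. The double-strand break sensor gene NBN (-0.37 ± 0.15) and the cyclin gene CCNE2 (-0.44 ± 0.15) were not called.

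Of 11 tested genes of ubiquitin and kinase signalling, 7 were called lower and 0 higher, with a median log2 fold change of -0.61. YWHAZ, a 14-3-3 adaptor protein, had 513 and 441 CPM in Synph-293, against 683 and 914 CPM in HEK293. MTDH, a membrane-bound adaptor protein studied in tumour cells, had 152 and 185 CPM in Synph-293, against 327 and 214 CPM in HEK293. In HEK293 the replicates of these 2 genes differed in opposite directions, YWHAZ being higher in replicate 2 and MTDH in replicate 1, and without HEK293 replicate 1 the log2 fold change of MTDH was -0.35 (edgeR adjusted p = 0.169). The calls of MTDH and YWHAZ were also lost with Synph-293 replicate 1 left out (log2 fold changes -0.53 and -0.84). The same held with Synph-293 replicate 2 left out (-0.83 and -0.64). ELOC, a subunit of cullin-based ubiquitin ligases, had a log2 fold change of -0.73 ± 0.16. It lost the call when Synph-293 replicate 2 was left out (-0.62). RIPK2, a kinase downstream of the NOD receptors, had 12.2 and 10.9 CPM in Synph-293, against 21.1 and 24.8 CPM in HEK293, with -0.99 ± 0.18, and was the 1 member of the list to keep the call whichever library was left out.

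All 14 tested genes of membrane traffic and cilia were below 0, as were 87.1% of tested block genes. The median log2 fold change of the 14 was -0.68, and 8 were called lower and 0 higher. LAPTM4B, a lysosomal membrane protein, had 172 and 195 CPM in Synph-293, against 452 and 305 CPM in HEK293. Its HEK293 libraries lay apart, but both were above the Synph-293 libraries, and its log2 fold change was -1.05 ± 0.21. ATP6V0D2, a subunit of the proton-pumping ATPase, had the lowest value of the tested block genes, with -2.72 ± 0.46, at low levels of 0.298 and 0.245 CPM in Synph-293, against 1.601 and 2.097 CPM in HEK293. CPNE3, a calcium-dependent phospholipid-binding protein, had 98.6 and 95.4 CPM in Synph-293, against 149.8 and 151 CPM in HEK293, with the libraries of each group close together. Its call was lost when Synph-293 replicate 1 or 2 was left out. The log2 fold changes of CPNE3 were then -0.64 and -0.61, against -0.63 with all libraries. LAPTM4B and ATP6V0D2 kept theirs.

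Lipid genes and the carbonic anhydrase genes, 2 groups that include clusters of related genes, held exceptions. Of 5 tested lipid genes 3 were called lower and 1 higher. PTDSS1, which makes phosphatidylserine, had a log2 fold change of -0.58 ± 0.16, and IMPA1, an inositol monophosphatase, one of -0.73 ± 0.17. Neither kept its call. PTDSS1 lost it with Synph-293 replicate 1 or 2 left out (-0.47 and -0.67). IMPA1 lost it with Synph-293 replicate 2 left out (-0.6). FABP5 (chromosome 8, 81280536 to 81284777), a fatty acid-binding protein, had 23.9 and 28.1 CPM in Synph-293, against 13.2 and 17.8 CPM in HEK293, a call that was lost when Synph-293 replicate 2 was left out (edgeR adjusted p = 0.155). Its relatives FABP4, PMP2, FABP9 and FABP12, which lie in the same cluster, had at most 1 count in any library. In the carbonic anhydrase cluster, CA2 (chromosome 8, 85463968 to 85481493) had 16.3 and 13.3 CPM in Synph-293, against 3.499 and 4.87 CPM in HEK293, and kept its call as higher whichever library was left out (1.83 ± 0.23). CA13 in the same cluster had 2.62 and 2.701 CPM in Synph-293, against 3.14 and 2.397 CPM in HEK293, with overlapping groups. CA1 and CA3, which lie between CA13 and CA2, had at most 5 counts in any library.

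Transcription regulators lay nearer to 0. Of 9 tested, 1 was called lower and 0 higher, and the median log2 fold change was -0.38. The called gene was the zinc finger repressor ZBTB10, with 59.2 and 62.6 CPM in Synph-293, against 154 and 142 CPM in HEK293 and a log2 fold change of -1.28 ± 0.16. ZNF704 had 45.6 and 46.95 CPM in Synph-293, against 43.8 and 47.8 CPM in HEK293, with overlapping groups, and the nuclear receptor coactivator NCOA2 had a log2 fold change of -0.10 ± 0.15. EYA1, a cofactor of kidney development, had 8.35 and 6.87 CPM in Synph-293, against 10.6 and 10.3 CPM in HEK293, and was not called (-0.46 ± 0.20). Of the 5 tested channel and neuronal genes 0 were called in either direction. Their median was -0.27, and NCALD and the channel gene TRPA1 had values of 0.93 ± 0.35 and 0.60 ± 0.32. The neuronal genes STMN2, RALYL and KCNS2 had no count in any library.

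Matrix, adhesion and secreted factors showed the widest range, from -2.14 to 3.07 on the log2 scale. Of 8 tested, 4 were called lower and 1 higher. MMP16 (chromosome 8, 88032011 to 88328025), a membrane-bound matrix metalloproteinase, had 19.2 and 22.2 CPM in Synph-293, against 3.02 and 1.798 CPM in HEK293. It was the largest rise of the block genes that had counts in both groups, at 3.07 ± 0.25, and kept the call whichever library was left out. SDC2, a heparan sulfate proteoglycan, had 43.6 and 56.6 CPM in Synph-293, against 151 and 103 CPM in HEK293, and GDF6, a BMP-family ligand, had 3.34 and 3.74 CPM in Synph-293, against 14.7 and 12.5 CPM in HEK293. Both kept their calls as lower whichever library was left out, with -1.34 ± 0.21 and -1.94 ± 0.22. PI15, a secreted peptidase inhibitor, had -2.14 ± 0.50 at low levels, and lost the call when Synph-293 replicate 1 (edgeR adjusted p = 0.0939) or HEK293 replicate 1 (0.0808) was left out.

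**Figure D5:**
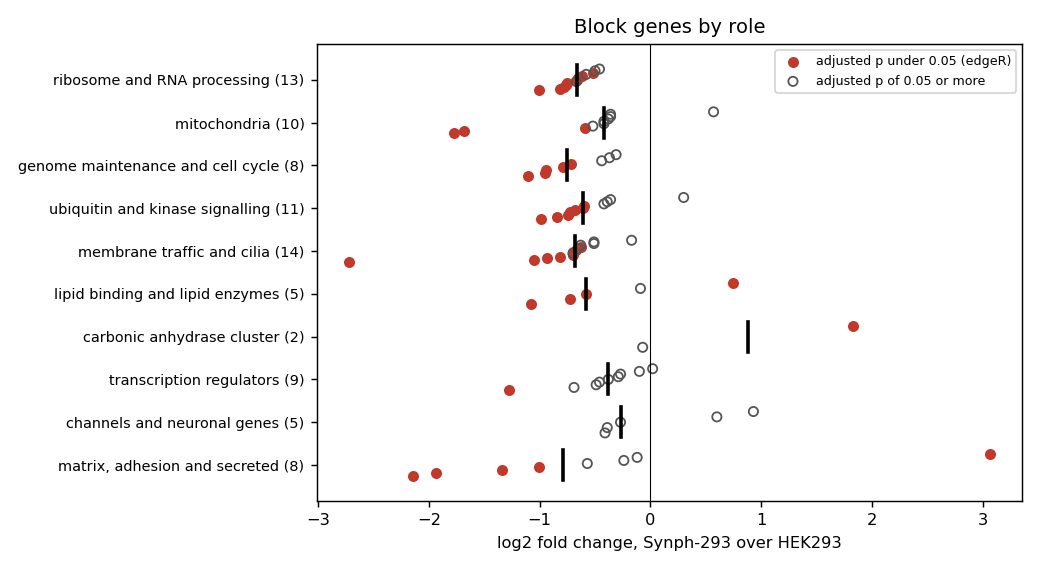
Log2 fold change of Synph-293 over HEK293 for the 85 tested members of 10 lists of block genes grouped by role; filled points were called by edgeR, open points were not, and bars mark the median of each list. The medians lie between -0.79 and -0.27 in 9 lists, and the carbonic anhydrase list, with 2 tested genes, lies at 0.88.

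Other genes far from the level of the block were the small GTPase gene GEM, with 3.88 and 3.56 CPM in Synph-293, against 12.04 and 12.7 CPM in HEK293, and the magnesium transporter family gene NIPAL2, with 3.88 and 3.38 CPM in Synph-293, against 11.4 and 9.81 CPM in HEK293. Both kept their calls as lower whichever library was left out (-1.73 ± 0.21 and -1.55 ± 0.22). Of the long noncoding RNAs, AC009812.4, AC022893.1 and MIR2052HG had log2 fold changes of -1.71 ± 0.35, -1.70 ± 0.37 and -1.76 ± 0.43. Of these, AC009812.4 kept its call whichever library was left out. MIR2052HG lost it when Synph-293 replicate 1 (edgeR adjusted p = 0.14) or HEK293 replicate 1 (0.0875) was left out, and AC022893.1 when Synph-293 replicate 1 was (0.0861). The fourth gene called higher, LINC02605, named after its values were seen, had 12 and 13 counts in Synph-293 and 0 in both HEK293 libraries, at least 3.76-fold higher against a limit of 3 counts per library. With either Synph-293 library left out it did not pass the count filter.

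Against the median of the block, 78 of its 116 genes lay within 2 standard errors, 17 above and 21 below, as a description of the spread. The interquartile range of the log2 fold changes was 0.497 in the block and 0.593 outside chromosome 8. Neighbouring tested genes differed by a median of 0.418 in the block and 0.37 outside chromosome 8. Pairs that share a promoter region or a locus, chosen after their values were seen, could differ. OTUD6B, a deubiquitinase gene, had a log2 fold change of -0.39 ± 0.17, and its divergent partner OTUD6B-AS1 one of -0.03 ± 0.17. RAD54B and FSBP, which overlap on the same strand, had -0.94 ± 0.16 and -0.33 ± 0.18. Of the 116 tested genes 78 overlap the span of an annotated gene on the opposite strand, whether or not that gene had counts. Some of these partners, such as BTF3P12 within NCOA2, had no count in any library. No source used here says whether counting used strand, so where both genes of a pair are transcribed their reads may not have been told apart. The median log2 fold change was -0.45 for these 78 and -0.68 for the other 38.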

How the data were processed

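RNA-seq was performed on 2 Synph-293 and 2 HEK293 samples. Per the labels' protocols, poly(A) RNA was used for stranded libraries sequenced as read pairs. For each sample and gene the deposited table holds RPKM and TPM values beside counts of reads. The deposited counts were treated as estimated counts rounded by the authors. RPKM and TPM were normalised by the authors for length and library size, and RPKM was not used. Per the submitters' processing notes, the build was GRCh38.p13 and the tools, with no role given, included STAR 2.7.1a, cutadapt 2.8, HTSeq 0.11.2, RSEM 1.3.1, Cufflinks 2.2.1 and featureCounts 2.0.0. Replicates differed by more than sampling noise (chi-square per degree of freedom 17.3 in Synph-293 and 24.7 in HEK293).

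Counts were analysed over the whole table with edgeR 4.0.16 in R 4.3.3 (low counts filtered by filterByExpr at 10 per library and 15 in total, TMM, quasi-likelihood test, Benjamini-Hochberg adjustment over 16421 genes, threshold 0.05). The filter keeps a gene that is high in 1 group only, so counts cover tested members. The code was tested on simulated data. Log2 CPM per library used a prior count of 2. GC content came from GENCODE 29 transcripts, matched by gene ID for 99.1% of block genes. Alternatives were DESeq2 1.42.0, limma 3.58.1 on log2 TPM with pseudocounts of 0.1 and 1, other filters, bounds and windows, each library left out, and a replicate term.

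The block, the 10 role lists (107 symbols, 105 matched by symbol and 2 by current symbol) and the rule for named genes were chosen with earlier results of these data known. The rule took SNCAIP, the 8 block genes with the highest mean CPM, the 10 largest falls and up to 10 rises past the threshold with at least 1 CPM in the higher group, up to 4 tested members per list by mean CPM, and the 3 tested genes on each side of each bound. Of the genes just outside the upper bound, 2 are not reported here. Other genes were named after their values were seen. A few listed genes are loosely placed, such as TRIQK, SPAG1 and OSGIN2.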

Additional observations from a re-analysis of the deposited data

How the results depend on the processing

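The difference of medians between the block and the other chromosome 8 genes was -0.653 and stayed below 0 in every alternative run. Leaving out 1 library at a time, the block median lay between -0.621 and -0.488, the median of the other chromosome 8 genes between 0.062 and 0.105 and their difference between -0.712 and -0.592. The block median was -0.497 without a filter and -0.523 and -0.457 in limma on log2 TPM with pseudocounts of 0.1 and 1, where the difference was -0.539 with a pseudocount of 1. The other genes had 0.151 without a filter. With genes of at least 10 CPM they had 0.003 and the difference was -0.602. Without the long arm genes before the block and those up to 112 Mb after it, chosen after seeing the data, they had 0.136 and the difference was -0.711. The lowest running median in the block was -0.69 over 31 genes and -0.7 over 15 protein-coding genes. The 4 higher block genes were 2 to 8 and the 49 lower ones 21 to 66 without 1 library at a time, and over all genes 1648 higher and 1081 lower became 1049 to 2183 and 457 to 2042. Of the higher block genes, MMP16, CA2 and FABP5 had at least 10 CPM in both Synph-293 libraries, and FABP5 alone had it in both HEK293 libraries too. In limma on log2 TPM, lower block genes numbered 26 and 27, and over all genes 1086 were higher with a pseudocount of 0.1, and 474 and 521 lower with pseudocounts of 0.1 and 1. By the labels the numbers 1 and 2 do not pair the samples. The correlation of deviations from the group mean was -0.277 between libraries of the same number. With 2 libraries per group it has the opposite sign for crossed numbers by construction. With the replicate block, 33 block genes were lower and 4 higher, and 719 genes were lower and 1380 higher in all. With crossed numbers, added after seeing the data, 74 block genes were lower and 7 higher, and 3016 and 3251 in all. The cause of these changes was not tested. Of 637 values of the 58 named genes, 525 kept direction and call, 86 lost and 26 gained the call, and 0 reversed. At 13284417 to 16998732 counts per library, 424 of 540 members did not pass the count filter, and 325 of these had no count in any library.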

Other observations

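Beyond the upper bound of the block, several genes had values in the range of those inside it, and are named here after their values were seen. EIF3E, a subunit of a translation initiation factor, had 216 and 224 CPM in Synph-293, against 359 and 335 CPM in HEK293, and DCAF13, a factor of ribosome assembly, had 50.1 and 48.9 CPM in Synph-293, against 84.2 and 82.99 CPM in HEK293. The transcription factor gene KLF10 had 41.3 and 39.3 CPM in Synph-293, against 66.1 and 80.6 CPM in HEK293. For each of the 3 genes both Synph-293 libraries lay below both HEK293 libraries. RIMS2, a gene of synaptic vesicle release, had 1.43 and 1.596 CPM in Synph-293, against 0.593 and 0.524 CPM in HEK293, with the groups apart in the other direction.

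In consecutive windows of 100 tested genes on the autosomes, 0 of 139 windows outside chromosome 8 had a median log2 fold change below that of the block. Their medians lay between -0.541 and 0.628, and 5 were below -0.4. Neighbouring windows at the start of chromosome 7 had -0.524 and -0.541, and a window of chromosome 11 had -0.537. These lie close to the block median of -0.575. The bounds of the block were chosen on this contrast and do not follow the fixed windows, so nothing is read from the 0 of 139. On chromosome 8 the window from 43093506 to 81732448 had a median of -0.32 and that from 81799581 to 109573978 one of -0.631. The medians of whole autosomes lay between -0.272 on chromosome 10 and 0.291 on chromosome 19, and chromosome 8 as a whole had -0.027. Windows and whole autosomes describe the same contrast that the block was chosen on.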
